A study of Homo sapiens and Mus musculus with 8 samples.

Results

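The genes described here are regulators of the melanocyte lineage: the transcription factor genes Mitf, Pax3, Sox10, Sox9, Sox5 and Sox4, the receptor genes Mc1r, Kit and Ednrb, and the coactivator gene Ppargc1a. They were chosen by name, as the rows whose gene symbol equals 1 of these 10, ignoring letter case. Of the 10, 9 had a row in each of the 3 mouse tables, which held 14648, 14821 and 15041 usable genes, and 0 had a row in either of the 2 human tables of 420 genes. Ednrb was not analysed here. The study profiled 8 samples of 3 melanoma cell lines by RNA-seq, with 1 sample per group. In the mouse line B16N the groups were cells exposed to UV for 2 weeks, cells exposed for 5 weeks, a clone overexpressing Orai1 and untreated control cells. The clone came from a transfection with CFP-tagged wild-type Orai1, the pore protein of store-operated Ca2+ entry, followed by G418 selection, cell sorting and growth of single clones. It is therefore 1 clone, and no control clone that went through the same selection was analysed here. In the human lines WM983 and UACC257 the groups were cells exposed to UV, titled UV3 but labelled Week 2, and untreated control cells, all of wild-type genotype in the labels.

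Melanocytes arise from the neural crest, and MITF is the transcription factor that specifies and maintains them. PAX3 and SOX10 bind and activate the Mitf promoter, as does CREB when MC1R, the melanocortin receptor, raises cyclic AMP. MITF and SOX10 in turn drive the genes of melanin synthesis, while KIT and EDNRB are receptors that melanocyte precursors need to survive and migrate. SOX9 stands close to SOX10 in sequence, SOX5 modulates SOX10 activity, SOX4 belongs to another SOX group, and PGC-1 alpha, the product of Ppargc1a, is a coactivator of mitochondrial genes that is an MITF target in melanoma cells.

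For each treated B16N sample the authors deposited a comparison with the 1 control sample, which gives every gene a log2 fold change, a statistic and a p-value. No levels or counts were analysed, so depth is unknown and the order of the genes by expression cannot be given. Changes are given as log2 of treated over control. The standard error (SE) is the one the deposited statistic implies, and p-values were adjusted over the whole table by the Benjamini-Hochberg method. A gene is called changed at an adjusted p under 0.05. Each test compares 2 libraries and not 2 conditions, and has no replicate check. The 3 comparisons share 1 control, so any property of that library enters all 3. Control and clone were labelled day 0 and the UV samples week 2 or 5, so UV and time in culture cannot be told apart.

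Of the 9 genes with a row, 7 had values that no other symbol shared. The row of Sox10 held the same values as that of another symbol in all 3 mouse tables, and Sox5 likewise shared its values with Tbrg3. Which symbol of each pair the values describe cannot be told apart, so Sox10 and Sox5 are left out of the counts. Such sharing was common, with 28.9% of usable rows at 2 weeks, 29.3% at 5 weeks and 29.1% in the clone.

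Among the 7 genes, after 2 weeks of UV Mc1r rose and Sox4 fell. After 5 weeks of UV both Mc1r and Sox4 fell. In the Orai1 clone Ppargc1a, Mc1r, Sox4 and Pax3 fell, and none of the 7 rose. In these bulk samples, fewer cells expressing a gene and less RNA per cell cannot be told apart. The 2-week and 5-week samples thus had 2 of 7 called each, and the clone 4 of 7. Among all genes with values of their own, 8.99% were called at 2 weeks (3.71% higher and 5.28% lower), 5.51% at 5 weeks (3.53% higher and 1.98% lower) and 25.9% in the clone (12% higher and 13.9% lower). Over all usable rows, shared values included, the shares were 7.67% at 2 weeks (3.13% higher and 4.55% lower), 4.78% at 5 weeks (3.07% higher and 1.71% lower) and 22% in the clone (10.3% higher and 11.6% lower). These shares cover genes of every SE and are not matched to the 7 genes for precision. Pax3, Mc1r and Sox4 were measured more precisely than most genes, and Mitf, Kit and Sox9 less precisely. The median change of the 7 genes was 0.38 at 2 weeks, 0.16 at 5 weeks and -0.51 in the clone, against 0.020, 0.0069 and 0.033 for all genes with values of their own. The first 2 medians are those of Mitf and Pax3, neither of which passed the test there.

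**Figure D1:**
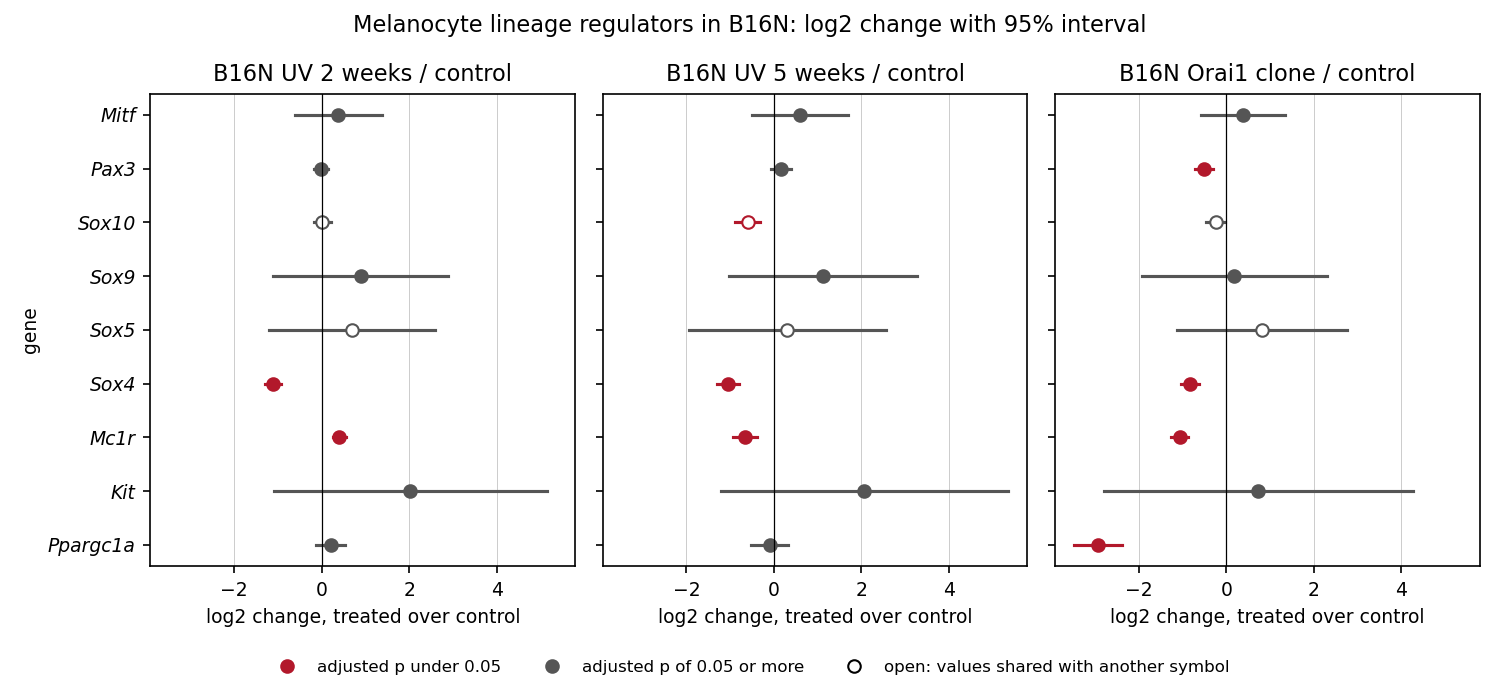
Log2 change (treated over control, x axis) of each lineage regulator gene (y axis) in the 3 B16N comparisons, with lines for the 95% interval from the SE, red for an adjusted p under 0.05 and open circles for values shared with another symbol. Sox4 lies below 0 in each panel, Mc1r lies above 0 at 2 weeks of UV and below 0 in the other 2 panels, and Ppargc1a stands at -2.93 in the clone.

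Mitf, the central factor of the set, did not pass the test in any of the 3 comparisons. Its change per the authors' deposited tables was 0.38 (SE 0.51, adjusted p = 0.949) after 2 weeks of UV, 0.60 (SE 0.56, adjusted p = 0.847) after 5 weeks and 0.39 (SE 0.49, adjusted p = 0.742) in the clone. The 95% intervals ran from -0.61 to 1.38, from -0.49 to 1.69 and from -0.57 to 1.34, so a doubling of Mitf lies within each of them. At these SEs a change of at least 1.47, 1.69 and 1.24 in size would have been needed for a call. Mitf was measured less precisely than most genes, as 62.2%, 60.1% and 60.2% of rows had a smaller SE.

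Pax3, a paired-box factor upstream of Mitf, was by contrast among the most precisely measured genes, with a smaller SE in only 2.95%, 1.52% and 4.09% of rows. After 2 weeks of UV its change per the authors' deposited table was -0.0084 (SE 0.084, adjusted p = 0.992), with a 95% interval from -0.17 to 0.16. After 5 weeks the authors' deposited change was 0.16 (SE 0.12, adjusted p = 0.698), with an interval from -0.073 to 0.40. Both intervals leave out a change of 1.5-fold in either direction between these libraries. With 1 library per group they hold no measured spread between cultures, so they do not bound an effect of UV. In the Orai1 clone Pax3 fell by 0.51 on the log2 scale per the authors' deposited table (SE 0.10, adjusted p = 1.32e-05), a 1.42-fold decrease. The change of Pax3 in the clone differed from those at 2 weeks (difference -0.50, SE 0.13, adjusted p = 0.00264) and 5 weeks of UV (-0.67, SE 0.16, adjusted p = 0.00103) by a normal test of the difference of the authors' deposited changes.

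The values that Sox10 shared with another symbol were 0.015 (SE 0.097, adjusted p = 0.980) at 2 weeks of UV per the authors' deposited table. At 5 weeks they were lower than in the control (-0.60, SE 0.15, adjusted p = 0.00212), and in the clone they stood at -0.24 (SE 0.11, adjusted p = 0.111) per the authors' deposited tables. With shared values kept in the test of differences, the authors' deposited changes of that row differed by -0.62 between 5 and 2 weeks of UV (adjusted p = 0.0192), which was tried under no other setting. Sox9, whose product resembles SOX10, had an SE above 1 in each comparison, and its adjusted p-values were 0.898, 0.871 and 0.961 in the order of 2 weeks, 5 weeks and clone. The values that Sox5 shared with Tbrg3 had SEs of 0.96, 1.15 and 0.99 and adjusted p-values of 0.959, 0.965 and 0.721 per the authors' deposited tables. The 95% intervals of Sox9 ran from -1.10 to 2.88, from -1.02 to 3.26 and from -1.94 to 2.31. A change of Sox9 would have been called only from 2.94, 3.32 and 2.76 on the log2 scale, so the tables carry little information on it.

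Sox4 had the smallest p-value of the set at both UV times. At 2 weeks it fell by 1.12 on the log2 scale per the authors' deposited table (SE 0.094, adjusted p = 2.40e-29), which is 2.17-fold, and its p ranked 3 from the smallest among 14648 genes. At 5 weeks it fell by 1.05 (SE 0.13, adjusted p = 1.55e-12), which is 2.07-fold, and its p ranked 24 per the authors' deposited table. In the clone it fell by 0.83 (SE 0.10, adjusted p = 6.93e-15), which is 1.78-fold, with a rank of 241 in the authors' deposited p-values. The 3 falls are not separate evidence, as each was taken against 1 control library.

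Compared with one another, the treated samples had Sox4 changes for which the test found no difference. The common control cancels in such differences, but its spread is counted in both SEs, which widens the intervals. From the authors' deposited values, the difference was 0.069 (95% interval from -0.25 to 0.39, adjusted p = 0.999) for 5 against 2 weeks and 0.22 (from -0.10 to 0.55, adjusted p = 0.694) for the clone against 5 weeks. For the clone against 2 weeks it was 0.29 (from 0.022 to 0.56, adjusted p = 0.170) from the authors' deposited tables. This last difference of the authors' deposited changes did pass (adjusted p = 0.0194) when the spread of the common control was taken out of the SE, on the assumption that the control holds a share of 0.5 of the smaller squared SE.

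Mc1r moved in opposite directions at the 2 UV times. It rose by 0.41 at 2 weeks (SE 0.079, adjusted p = 1.95e-05), a 1.33-fold increase, and fell by 0.65 on the log2 scale at 5 weeks (SE 0.14, adjusted p = 2.76e-04), a 1.57-fold decrease, per the authors' deposited tables. The difference of the authors' deposited changes between 5 and 2 weeks, in which the common control cancels except for its spread in the SE, was -1.06 (SE 0.16, 95% interval from -1.38 to -0.74, adjusted p = 2.55e-08), and its p ranked 19 among 10166 genes. In the clone Mc1r fell by 1.06 on the log2 scale per the authors' deposited table (SE 0.099, adjusted p = 1.07e-24), which is 2.09-fold. The authors' deposited changes differed by -1.47 between the clone and 2 weeks of UV (SE 0.13, adjusted p = 2.04e-28). Between the clone and 5 weeks of UV the authors' deposited changes differed by -0.41 (SE 0.17, 95% interval from -0.74 to -0.071), which did not pass (adjusted p = 0.182) unless the control spread was taken out as above (adjusted p = 0.0348).

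Kit, the receptor for stem cell factor, had SEs of 1.60, 1.68 and 1.80 and adjusted p-values of 0.699, 0.761 and 0.917 per the authors' deposited tables. Its 95% intervals ran from -1.10 to 5.16 at 2 weeks of UV, from -1.22 to 5.36 at 5 weeks and from -2.80 to 4.27 in the clone, so each holds both falls and large rises. A change of 4.62, 5.09 and 4.59 on the log2 scale would have been needed for a call.

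Ppargc1a showed the largest called change of the set. In the clone it fell by 2.93 on the log2 scale per the authors' deposited table (SE 0.28, adjusted p = 7.73e-24), which is 7.62-fold. This fall ranked 83 by size among the 1752 called falls, and 22 among those of SE at most 0.5. At 2 weeks of UV the authors' deposited change was 0.21 (SE 0.17, adjusted p = 0.734), with a 95% interval from -0.13 to 0.54. At 5 weeks it was -0.093 (SE 0.21, adjusted p = 0.965), with an interval from -0.51 to 0.33 per the authors' deposited tables. By the authors' deposited values, the change in the clone differed from those at 2 weeks (-3.14, SE 0.33, adjusted p = 1.42e-19) and at 5 weeks (-2.84, SE 0.35, adjusted p = 2.57e-13).

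**Figure D2:**
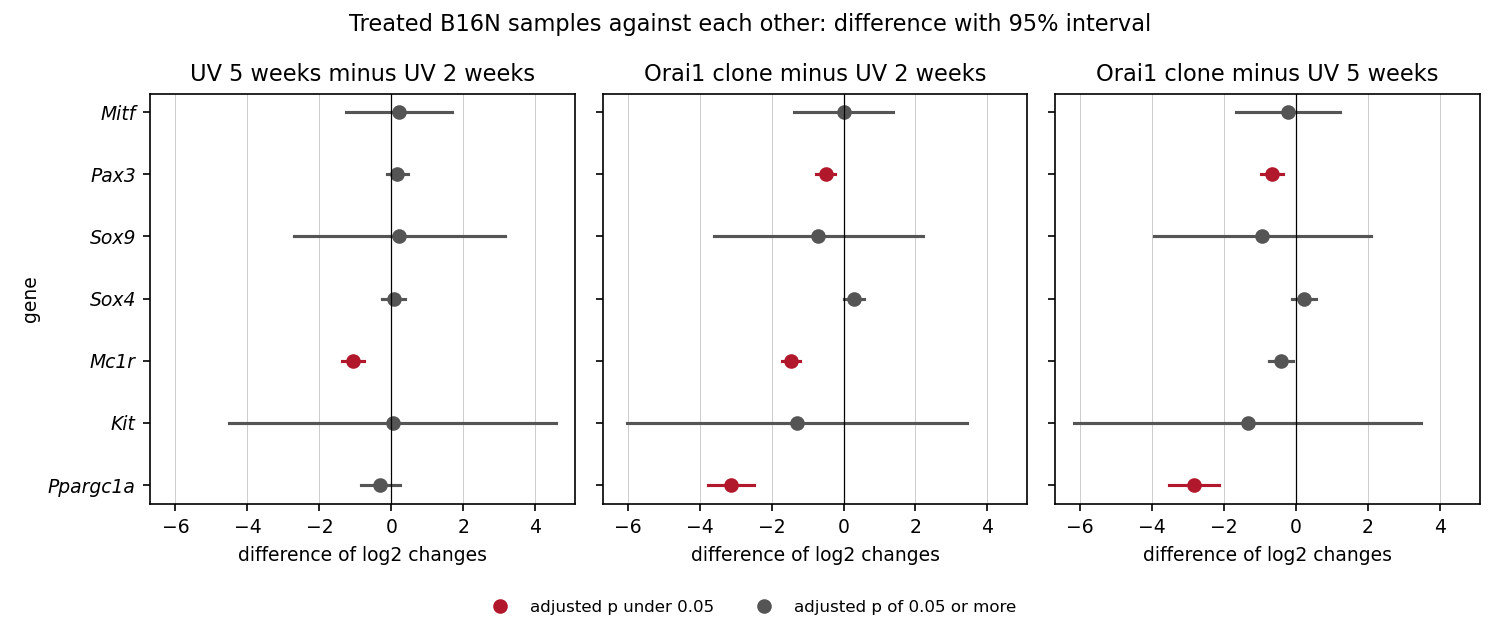
Difference of log2 changes (x axis) between pairs of treated B16N samples for the 7 lineage regulators with values of their own (y axis), with lines for the 95% interval and red for an adjusted p under 0.05. Mc1r lies below 0 for 5 against 2 weeks, and Ppargc1a and Pax3 lie below 0 for the clone against both UV times.

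Over the 3 pairs of treated samples, 21 such differences of the 7 genes were tested and 6 were called. They comprised 1 of 7 for 5 against 2 weeks, 3 of 7 for the clone against 2 weeks and 2 of 7 for the clone against 5 weeks. Among all genes tested, 3.75% of 10166 differed in the first pair (2.31% higher and 1.44% lower in the 5-week sample). In the second pair 13.2% of 10218 differed (5.25% higher and 7.98% lower in the clone), and in the third 6.18% of 10278 (1.49% higher and 4.69% lower in the clone). The 6 called differences lay on the side of the later time point or the clone being lower.

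**Figure D3:**
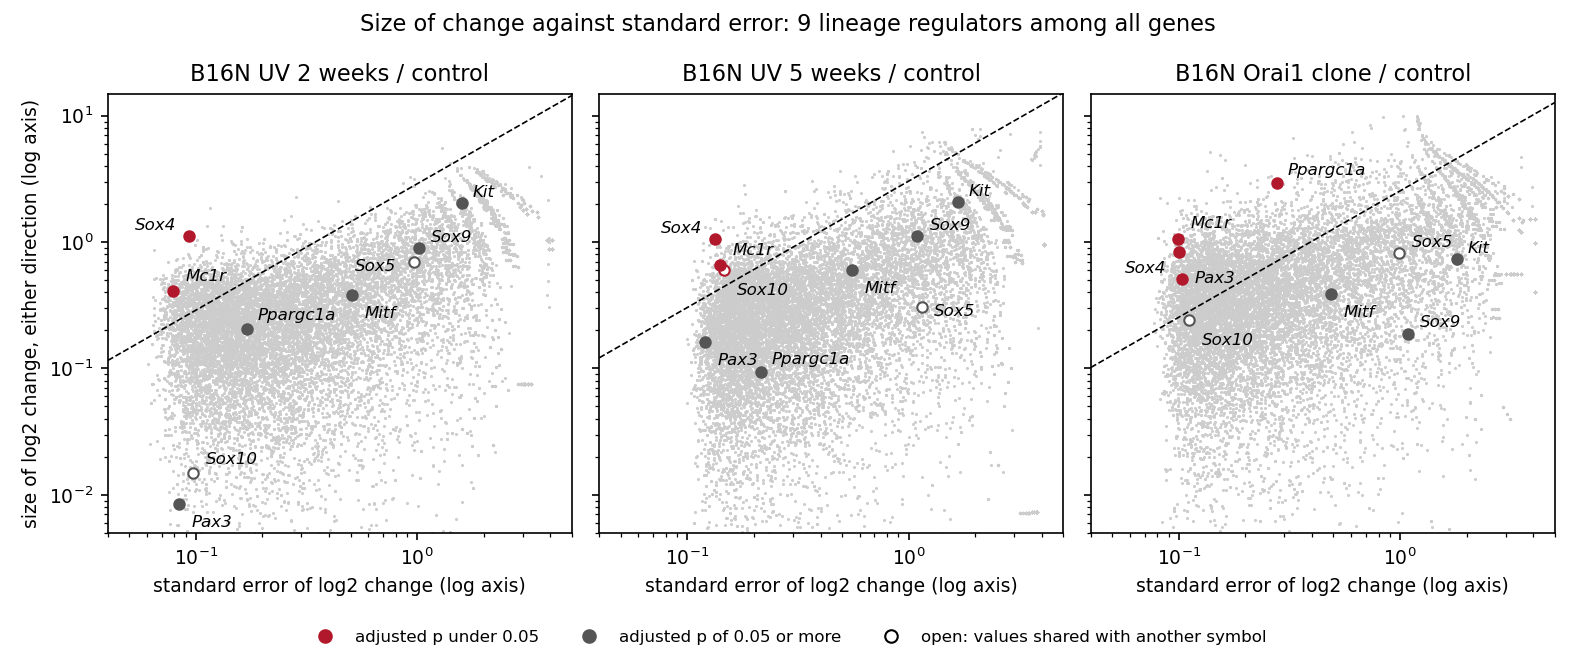
Size of the log2 change (y axis, log scale) against its SE (x axis, log scale) in the 3 B16N comparisons, with all genes in grey, the lineage regulators as circles and the dashed line at the smallest change called for a given SE. Pax3, Mc1r, Sox4 and Sox10 lie at SEs from 0.079 to 0.15, and Mitf, Sox5, Sox9 and Kit lie between 0.49 and 1.80, so that these last 4 could be called only for larger changes.

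By Euclidean distance over the 3 log2 changes, among 7168 genes with values of their own and an SE of at most 0.5 in each table, Sox4 had no other gene within 0.3. Its nearest genes were Ankrd50 (distance 0.34), the NF-kB inhibitor gene Nfkbie (0.38) and the Notch coactivator gene Maml3 (0.45). Mc1r had 13 genes within 0.3, the nearest being the creatine kinase gene Ckb (0.15), Taz (0.18) and Rsrp1 (0.20). Ckb stood at 0.46 at 2 weeks of UV, -0.77 at 5 weeks and -1.14 in the clone per the authors' deposited tables. Pax3 had 321 genes within 0.3, the nearest being the transcription factor gene Runx1 (0.048), the zinc transporter gene Slc30a5 (0.051) and Sgcb (0.062). With 3 comparisons and 1 control, such closeness is a description only. The number of genes within 0.3 also depends on the size of a gene's changes, as large changes are rarer.

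The counts of this and the following lists stand beside 8.99% of all genes with values of their own called at 2 weeks, 5.51% at 5 weeks and 25.9% in the clone. No list was tested as a set. Among the other SOX genes of a list of 15, few had values of their own. At 2 weeks of UV 1 of the 4 measured fell, at 5 weeks 1 of 3 rose, and 1 of 5 fell in the clone. Sox11, of the same SOX group as Sox4, fell by 0.27 on the log2 scale at 2 weeks (SE 0.086, adjusted p = 0.0246) and by 0.48 in the clone (SE 0.092, adjusted p = 3.83e-06) per the authors' deposited tables. At 5 weeks Sox11 stood at -0.30 by the authors' deposited values (SE 0.13, adjusted p = 0.217). By the authors' deposited values, Sox21 rose at 5 weeks with an SE above 1 (adjusted p = 1.99e-04). The list medians were -0.39, 0.76 and 0.016 at 2 weeks, 5 weeks and in the clone, over sets of genes that differ. The 5-week and clone medians are the values of Sox13 and Sox2, which did not pass there and had SEs above 1.

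Of 26 MITF relatives and partner factors, 13 had values of their own in each table. At 2 weeks 1 fell and none rose, at 5 weeks none passed in either direction, and in the clone 1 rose and 4 fell. Zeb2, a zinc finger factor of melanocyte differentiation, fell by 0.46 on the log2 scale at 2 weeks (SE 0.094) and by 0.60 in the clone (SE 0.12) per the authors' deposited tables. In the clone Pou3f2, which encodes the POU factor BRN2, fell by 2.89 (SE 0.54, adjusted p = 1.41e-06), and the Notch effector gene Hes1 rose by 2.83 (SE 0.16, adjusted p = 1.09e-63) per the authors' deposited table. Usf2, a factor that binds the same E-box motif as MITF, fell by 0.46 in the clone (SE 0.14). The medians of the list were 0.072, -0.16 and -0.21.

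Of 34 genes for receptor ligands, cyclic AMP and receptor signalling, 15 had values of their own at each UV time and 16 in the clone. At 2 weeks 1 fell, at 5 weeks 2 fell, and in the clone 1 rose and 1 fell. Crtc1, a coactivator of CREB, fell by 0.44 on the log2 scale at 2 weeks (SE 0.13, adjusted p = 0.0116) per the authors' deposited table. At 5 weeks the CREB-induced kinase gene Sik1 fell by 1.20 (SE 0.28, adjusted p = 8.91e-04) and the adenylyl cyclase gene Adcy6 by 0.49 (SE 0.15, adjusted p = 0.0242) per the authors' deposited table. Mc1r was lower there and in the clone, where neither gene passed. Sik1 stood at -0.15 (SE 0.19, adjusted p = 0.754) and Adcy6 at -0.21 (SE 0.12, adjusted p = 0.248) in the clone by the authors' deposited values. In the clone Prkar1a, the regulatory subunit of protein kinase A that holds the kinase inactive, rose by 0.54 (SE 0.12) and the ubiquitin ligase gene Mgrn1 fell by 0.58 (SE 0.19) per the authors' deposited table. The medians were -0.0075, -0.19 and 0.10.

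Of 33 MITF and SOX10 target genes, 9 of 21 with values of their own rose and 1 fell at 2 weeks, 9 of 20 rose and 1 fell at 5 weeks, and 8 of 21 rose and 4 fell in the clone. The medians were 0.55, 0.56 and 0.18. The called targets that moved most at 2 weeks, by the authors' deposited values, were the tyrosinase gene Tyr (0.95, SE 0.099), the melanosomal glycoprotein gene Gpnmb (0.86, SE 0.065), the melanosomal transporter gene Slc45a2 (0.84, SE 0.11) and the Ca2+-binding protein gene S100b (0.77, SE 0.12). At 5 weeks, by the authors' deposited values, they were Tyr (1.32, SE 0.15), the receptor gene Erbb3 (-1.02, SE 0.24), S100b (0.86, SE 0.17) and the melanosomal exchanger gene Slc24a5 (0.86, SE 0.16). In the clone, by the authors' deposited values, called targets with large changes included Oca2, which rose with an SE above 1 (adjusted p = 6.75e-04), the melanosome transport gene Rab27a (1.88, SE 0.51) and S100b (-1.68, SE 0.16).

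The targets that fell in the clone included S100b, Erbb3 (adjusted p = 1.44e-07) and the melanin synthesis gene Dct (-0.61, SE 0.092), while Slc45a2 (1.64, SE 0.11) and Slc24a5 (1.53, SE 0.11) were among those that rose per the authors' deposited table. Dct differed between the clone and 2 weeks of UV by -1.33 and between the clone and 5 weeks by -1.46. S100b differed by -2.45 and -2.54 in the same pairs (normal test, the largest of these 4 adjusted p-values being 1.37e-13). Both genes were picked as called in opposite directions in these pairs, so these tests were all but bound to pass. Over the list, 3 of 20 targets were higher and 5 lower in the clone than at 2 weeks, 2 were higher and 4 lower than at 5 weeks, and 1 was higher and 1 lower at 5 than at 2 weeks. Tyr, which rose at both UV times, stood at 0.12 (SE 0.14, adjusted p = 0.694) in the clone per the authors' deposited table.

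**Figure D4:**
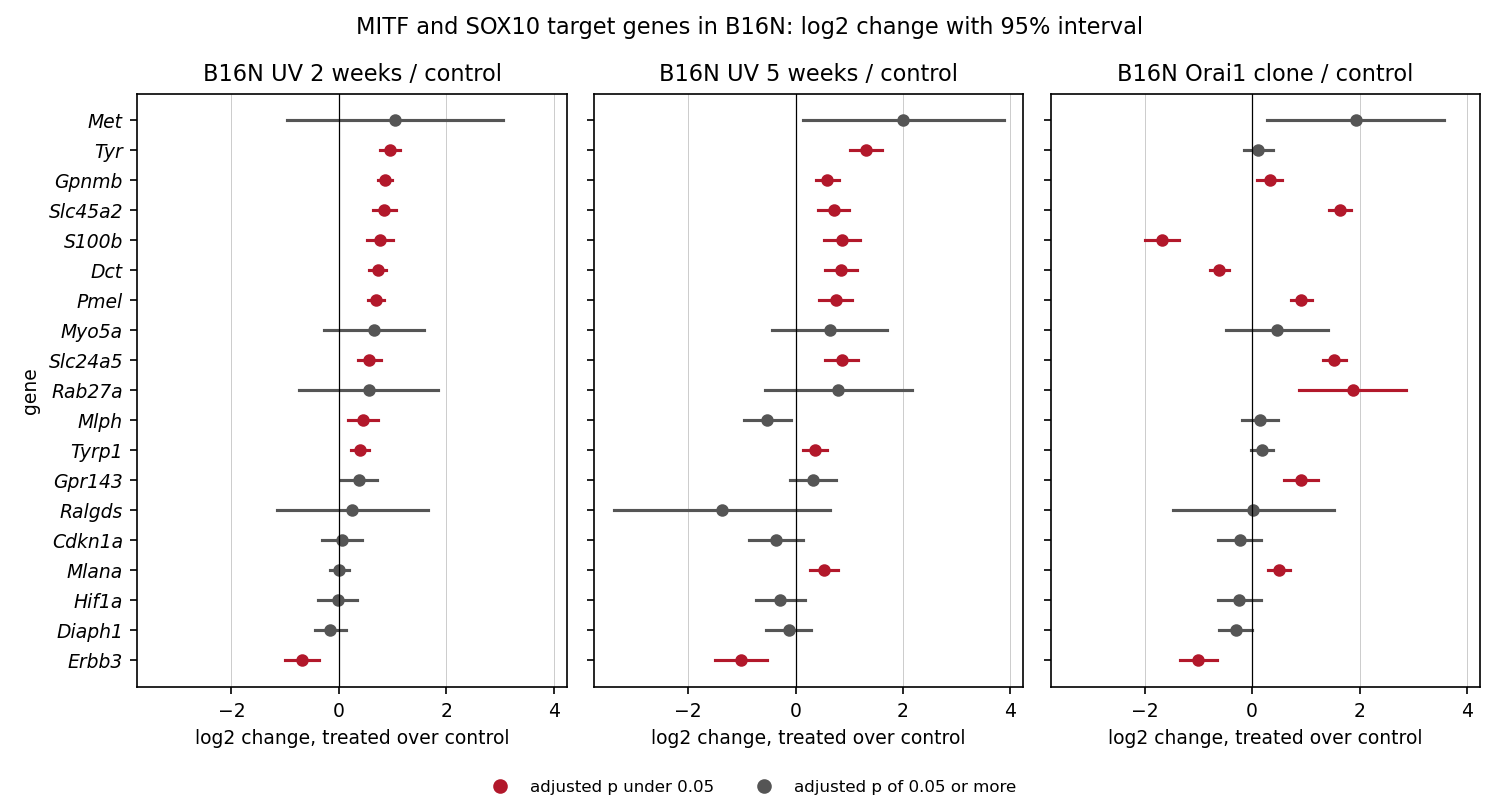
Log2 change (treated over control, x axis) of 19 MITF and SOX10 target genes with values of their own in all 3 B16N comparisons (y axis), with lines for the 95% interval and red for an adjusted p under 0.05. S100b and Dct lie above 0 at both UV times and below 0 in the clone, and Erbb3 lies below 0 in each panel.

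Of 18 targets and partners of PGC-1 alpha, 10 had values of their own in each table. At 2 weeks 1 fell, at 5 weeks none passed, and in the clone, where Ppargc1a was lower, 2 rose and 2 fell. In the clone the manganese superoxide dismutase gene Sod2 (0.50, SE 0.17) and the fatty acid oxidation gene Acadm (0.43, SE 0.12) rose, and the nuclear receptor gene Esrra (-0.42, SE 0.14) and the cytochrome c gene Cycs (-0.42, SE 0.10) fell per the authors' deposited table. Esrra also fell at 2 weeks (-0.40, SE 0.11) per the authors' deposited table. Ppargc1b, the paralog of Ppargc1a, stood by the authors' deposited values at 0.25 (SE 0.43, adjusted p = 0.855) in the clone. The medians were -0.086, -0.044 and 0.081.

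Of 16 neural crest and dedifferentiation markers, 9 had values of their own at 2 weeks and 8 in the other 2 comparisons. Most did not pass, namely 8 at 2 weeks, 7 at 5 weeks and 6 in the clone. The called ones were 1, 1 and 2 falls, and none rose. The receptor tyrosine kinase gene Axl, high in melanoma cells of low MITF activity, fell by 0.37 on the log2 scale at 2 weeks (SE 0.11, adjusted p = 0.0152), by 1.48 at 5 weeks (SE 0.19, adjusted p = 2.20e-12) and by 2.75 in the clone (SE 0.15, adjusted p = 6.51e-74) per the authors' deposited tables. In the clone Jun, an AP-1 factor gene, fell as well (-0.51, SE 0.11). The medians were 0.048, -0.48 and -0.24.

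Markers of the labelled cell type were measured in full, with all 6 melanocyte markers having values of their own in each mouse table. Of the fibroblast, keratinocyte and endothelial lists, of 6, 5 and 4 genes, at most 1, 2 and 2 members had a row and none had a value of its own. Of 6 immune markers, 2 had values of their own, and the myeloid gene Lyz2 stood at 0.38 (SE 0.94, adjusted p = 0.959) at 2 weeks and was higher at 5 weeks (3.47, SE 0.70, adjusted p = 6.84e-05) and in the clone (2.78, SE 0.64, adjusted p = 1.77e-04) per the authors' deposited tables. Mc1r was lower in these 2 comparisons. The other immune marker, Cd74, did not pass in any of the 3 tables. Their part in the results was not tested. Of 4 Schwann cell markers 2 had values of their own, and the nerve growth factor receptor gene Ngfr did not pass in any of the 3 tables.

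In the human lines the 10 lineage regulators were not analysed here. Both human tables used here held the same 420 symbols, which is part of a transcriptome. For WM983, 351 of them stood at the smallest deposited p-value, 5.00e-05, and 418 had a p under 0.05, against 42 in the UACC257 table. Of 152 genes in the 7 lists used here, 7 had a human row, and the direction of the human changes is not stated, so signs are given as deposited. The melanin synthesis gene TYRP1 stood at 3.73 (p = 5.00e-05) in WM983 and at -0.22 (p = 0.187) in UACC257 per the authors' deposited tables. The melanosome gene MLANA stood at 2.14 (p = 5.00e-05) and at -0.25 (p = 0.0726), and the apoptosis inhibitor gene BIRC7 at -1.63 (p = 5.00e-05) and at -0.16 (p = 0.242) in these lines per the authors' deposited tables. SOX2 stood at -1.21 in WM983 and 0.43 in UACC257, and the neural crest factor gene SNAI2 at 1.09 and 0.11, by the authors' deposited values. The CREB coactivator gene CRTC1 stood at -1.02 and 0.019 and the mitochondrial gene regulator GABPA at 1.21 and 0.19 in these lines, by the authors' deposited values. The difference between the human lines was not tested. How the 420 symbols were picked is not stated in the sources used here. A set picked for change in WM983 would show more change there than in UACC257 by that choice alone. The values therefore cannot compare the 2 lines.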

How the data were processed

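RNA-seq comparisons of 3 mouse and 2 human treated samples with their controls were used. Per the file headers, the deposited tables give each symbol a log2 fold change, a statistic (unit: score) and a p-value. GRCm38 is the build named in the submitters' processing notes, also for the human samples. Not given in the sources used here are aligner, counter and test. The deposited log2 change of the mouse tables has the control in the numerator: all 1357 genes with a row in 1 mouse table alone had a negative value. Signs were turned. A two-sided normal test of the score returns the deposited mouse p-value (largest gap 5.00e-08), so the SE is the size of change over score.

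Rows without a symbol or p-value were dropped. Benjamini-Hochberg adjustment ran over each table, and normal tests of differences of 2 changes, SEs added in squares, over all genes whose values, in both tables, no other symbol shared. The procedure was tested on simulated data. Members and lists were chosen with earlier results of these data known. Named genes are all members and, per list and comparison, up to 4 called genes with the largest changes, of which 1 is not reported here. Dct, Erbb3, Slc45a2, Slc24a5, Tyr, Sik1 and Adcy6 in the clone, Sox11 at 5 weeks, Ppargc1b, the marker genes and the 7 human list genes were named after their values were seen. Likeness followed the 3 nearest genes for the 3 called members of smallest SE. Alternatives were other fold minimums, thresholds, adjustments, SE limits, centring, the control's spread and symbols with shared values. Python 3.11.15, numpy 2.4.6, pandas 2.3.3, scipy 1.17.1 and matplotlib 3.10.9 were used. Depth is unknown.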

Additional observations from a re-analysis of the deposited data

Results flagged for a closer look

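A normal test of the difference between 2 treated B16N samples, in which their common control cancels, passed for 6 results of 3 lineage regulators. Mc1r differed between 5 and 2 weeks of UV by -1.06, and between the Orai1 clone and 2 weeks of UV by -1.47, in the authors' deposited tables. Ppargc1a differed between the clone and 2 weeks of UV by -3.14, and between the clone and 5 weeks by -2.84. Pax3 differed in the same pairs by -0.50 and -0.67. Among the list genes, 2 were called in opposite directions in the clone and under UV. They were picked for those opposite calls, so the test of their differences was all but bound to pass and adds no support. Dct differed between the clone and 2 weeks of UV by -1.33 and between the clone and 5 weeks by -1.46, and S100b by -2.45 and -2.54, in the authors' deposited tables. Each of these rests on 1 library per group.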

How the results depend on the processing

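No paired analysis was possible because each group held 1 library, and for the same reason no replicate could be left out. No called change or difference of a lineage regulator reversed under any alternative run. Of 98 alternative values of the 15 called results, Sox10 at 5 weeks included, 89 stayed called and 9 did not, each under a fold minimum of 2 or 1.5. Of the results not called, 2 became called with the control spread taken out (Sox4 and Mc1r, given above). With a fold minimum of 2, the members called were 1 at 2 weeks, 1 at 5 weeks and 2 in the clone. For the clone against 2 weeks they were then 2, and against 5 weeks 1. With a minimum of 1.5, 1 member was called at 2 weeks and 3 in the clone. Counts over all genes moved more, and those that moved by more than 1.5-fold are given. At 2 weeks 1124 genes became 51 with a minimum of 2, 269 with 1.5, 735 at an adjusted p under 0.01 and 626 with Benjamini-Yekutieli adjustment. At 5 weeks 708 became 269 with a minimum of 2, 430 at 0.01 and 351 with Benjamini-Yekutieli. In the clone 3305 became 1021 with a minimum of 2, 2049 with 1.5 and 2119 with Benjamini-Yekutieli. For 5 against 2 weeks 381 differences became 132 with a minimum of 2, 221 at 0.01 and 895 with the control spread taken out. For the clone against 2 weeks 1351 became 486, 900 and 2381, and against 5 weeks 635 became 277, 399 and 1218, under the same 3 settings. The lookup by earlier symbols also found 0 members in both human tables.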

Other observations

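For Ppargc1a no other of 7168 genes lay within a distance of 0.3 over the 3 log2 changes. Its fall in the Orai1 clone ranked 83 by size among the 1752 called falls, and 22 among those of SE at most 0.5. Few genes fell that far, so the count does not by itself show an unusual pattern. The genes nearest to Ppargc1a, looked up after the values were seen, were the cell adhesion gene Ncam1 (distance 0.36) and the pseudokinase gene Trib2 (0.39). Ncam1 stood at -2.74 in the clone, -0.075 at 2 weeks of UV and -0.21 at 5 weeks, and Trib2 at -2.87, -0.15 and 0.033, in the authors' deposited tables.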
